A study of Mus musculus with 23 samples.

Results

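The first 48 h of all-trans retinoic acid were examined in A404 cells by setting the RA48 arrays (n = 5) against the Control arrays (n = 6), as their titles give the groups. These are 11 of the 23 arrays of the series, and 8683 genes and 9180 further probes without 1 gene symbol were compared on them. A404 cells are a single clone derived from P19, a mouse embryonal carcinoma line. As background, they carry a puromycin resistance gene that the Acta2 promoter drives, and all groups share that transgene. Acta2 encodes smooth muscle alpha-actin. RA48 cells received 1 µmol/L all-trans retinoic acid at about 30% confluence and were harvested 48 h later, whereas Control cells received none and were harvested at time 0, close to confluence. Cell density and time in culture therefore cannot be told apart from the treatment. The RA96 arrays (n = 6), after 96 h of the same treatment, enter below only for the next 48 h.

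Each array compared red-labelled RNA from 5 to 6 plates of cells with green-labelled RNA pooled from whole mouse embryos of day 17.5. Levels are given as log2 ratios of cell over embryo RNA and changes as RA48 minus Control on that log2 scale, with the standard error of the limma fit. Whether replicates came from different cultures is not given in the labels, and p-values therefore cover only the spread between arrays, which may be technical. In bulk RNA, fewer cells of a type and less RNA per cell cannot be told apart. Neither the base, the centring nor the direction of the deposited ratios is stated. They were read as log10 of cells over embryo, so folds and signs rest on that reading, and no limit of detection is given because intensities were not used here.

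Cells take up retinol through the transporter STRA6 and oxidize it to retinoic acid, which binds nuclear receptors of the RAR family. Paired with RXR partners on DNA, these receptors recruit coactivators to nearby genes. Embryonal carcinoma cells resemble the early epiblast. Retinoic acid is known to make them leave that state, and in P19 cells it yields neural or mesodermal derivatives depending on the dose and the culture. The promoter of Rarb, which encodes retinoic acid receptor beta, holds the textbook example of a response element. It is shown because Rarb is the reference gene for the response in these arrays. The window runs from 250 bases before to 50 after the start (RefSeq, GRCm38.p6, chr14:16575427-16575726, minus strand, 5′ to 3′), and the capitals mark a direct repeat of 2 receptor half-sites with 5 bases between them:
Rarb: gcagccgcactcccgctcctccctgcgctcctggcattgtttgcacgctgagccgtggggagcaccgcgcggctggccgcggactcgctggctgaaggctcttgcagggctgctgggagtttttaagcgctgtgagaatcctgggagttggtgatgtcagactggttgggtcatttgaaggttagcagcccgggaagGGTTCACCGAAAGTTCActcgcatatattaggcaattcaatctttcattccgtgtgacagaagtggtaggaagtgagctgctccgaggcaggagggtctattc
The repeat covers bases -53 to -37 from the start. The half-site was searched as AGGTCA in its usual spelling, and in the spellings AGTTCA, then also GGTTCA, then also GGGTCA, with both half-sites of a pair in 1 orientation, on both strands. Such a pair was present in 32 of 32851 RefSeq windows of this length (0.0974%), and in the windows of 7 of the 7022 tested genes that had one. Of those 7 genes, too few to compare, 3 rose and 1 fell, against 18.0% and 16.4% of all genes. They are Rarb (3.01), Prokr2 (1.21), Ppbp (1.02) and Blvrb (-0.96). The last 3 are named because the search returned them, after their values were seen. The calls of Prokr2 and Ppbp were lost with group and array set as a random block (adjusted p = 0.30 and 0.60), and that of Ppbp also with a replicate block (0.059) and without any 1 of Control replicates 1, 3 and 4 or RA48 replicates 2 to 5 (0.057 to 0.107).

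The 4 genes taken to mark retinoic acid response and exit from the embryonal carcinoma state all differed between the groups. Pim2 had the largest fall of all genes tested, and Krt8 and Hoxa5 are among the 5 genes that rose by over 4. Their values therefore describe the comparison and do not test it. Rarb had log2 ratios of 3.09, 3.09, 3.13, 2.03 and 2.52 on the RA48 arrays, against -0.47, -0.23 and -0.06 (lowest, median and highest) on the Control arrays. Every RA48 array lay above every Control array, and replicates 4 and 5 were the lowest of the RA48 arrays. The change was 3.01 ± 0.20, an 8.06-fold rise (limma, adjusted p = 1.08e-10). Hoxa5, a homeobox gene of the cervical and thoracic body axis, stood at 3.24, 3.25, 3.25, 2.80 and 2.74, against -1.63, -1.38 and -1.07 in Control. Krt8, a keratin of simple epithelia, stood at 2.90, 2.96, 3.08, 3.17 and 3.04, against -2.44, -1.94 and -1.86. Pim2, a survival kinase, went the other way, with -0.16, -0.21, -0.15, -0.14 and -0.07 on the RA48 arrays and 3.99, 4.21 and 4.30 on the Control arrays. None of these 4 genes overlapped between the groups, and Pim2 was 20.0-fold lower in RA48 (-4.32 ± 0.14, adjusted p = 5.65e-16).

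**Figure D1:**
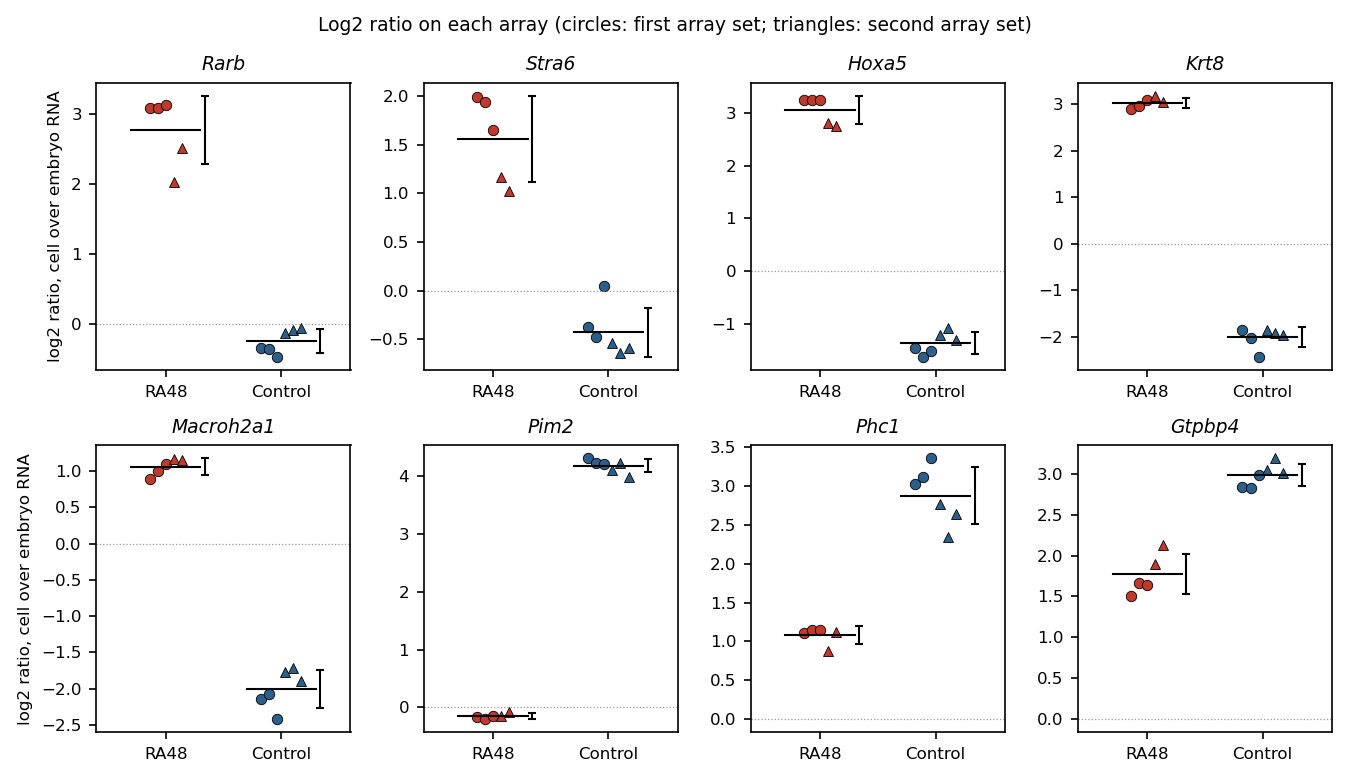
Log2 ratio of cell over embryo RNA on each array for 8 genes, with the 5 RA48 arrays left of the 6 Control arrays; horizontal lines are group means, bars beside them the SD, circles the first and triangles the second array set. For each gene all RA48 arrays lie on 1 side of all Control arrays, and for Rarb and Stra6 the RA48 triangles lie below the RA48 circles.

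In both groups the arrays formed 2 sets, for which the labels hold no name. RA48 replicates 1 to 3 and Control replicates 1 to 3 form the first set, and RA48 replicates 4 and 5 and Control replicates 4 to 6 the second. Across rows, RA48 arrays correlated at 0.915 to 0.973 within a set and at 0.705 to 0.751 between sets, and Control arrays at 0.898 to 0.951 and 0.75 to 0.825. Each change between RA48 and Control below was therefore also fitted within each set. Such a change is said to hold in both sets when it was called with 1 direction in each of them alone. The sets were read from the residuals of these arrays, so these p-values are optimistic, and agreement in direction is favoured since genes were called on both sets together. With a random block for group and set (limma duplicateCorrelation), in which the arrays of a group within a set count as repeats, fewer genes pass, and genes named here that lose their call there are given with that adjusted p. A replicate block pairs RA48 and Control arrays of 1 number, which also lie in 1 set, and its counts are given where they differ by over 1.5 times and either count is 4 or more.

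The response was broad and mostly of modest size. Of 8683 genes 2985 (34.4%) were called at an adjusted p under 0.05, 1564 of them higher in RA48 (18.0%) and 1421 lower (16.4%). The median rise among called genes was 0.68 (1.60-fold) and the median fall -0.55 (1.47-fold), so falls were nearly as common as rises but smaller. A rise over 1, a doubling, was called in 432 genes (4.98%), against a fall of that size in 191 (2.2%). Beyond 2 on the log2 scale stood 93 genes that rose and 19 that fell, and beyond 4 stood 5 that rose and 1 that fell. The groups did not overlap in 2253 genes (25.9%). The random block of group and set left 1083 genes (12.5%), 638 higher and 445 lower, so its counts are given below for gene lists where a count of 4 or more drops by over 1.5 times.

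Larger changes held more often in both sets, though size and hold come from the same arrays. Of the 2985 called genes 2974 moved one way in both sets, and 2177 (72.9%) were called alike in each set, which is 25.1% of genes tested. Among called genes with a rise under 0.5, 201 of 475 (42.3%) held in both sets, and among falls of that size 290 of 590 (49.2%). Between 0.5 and 1 the shares were 79.6% of 656 rises and 87.2% of 640 falls, and between 1 and 1.5 they were 95.7% and 96.5%. All 112 genes called with a change over 2 held in both sets. Of 733 called genes with several probes, 665 (90.7%) had all probes on 1 side of 0 and 298 (40.7%) had every probe called alike.

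**Figure D2:**
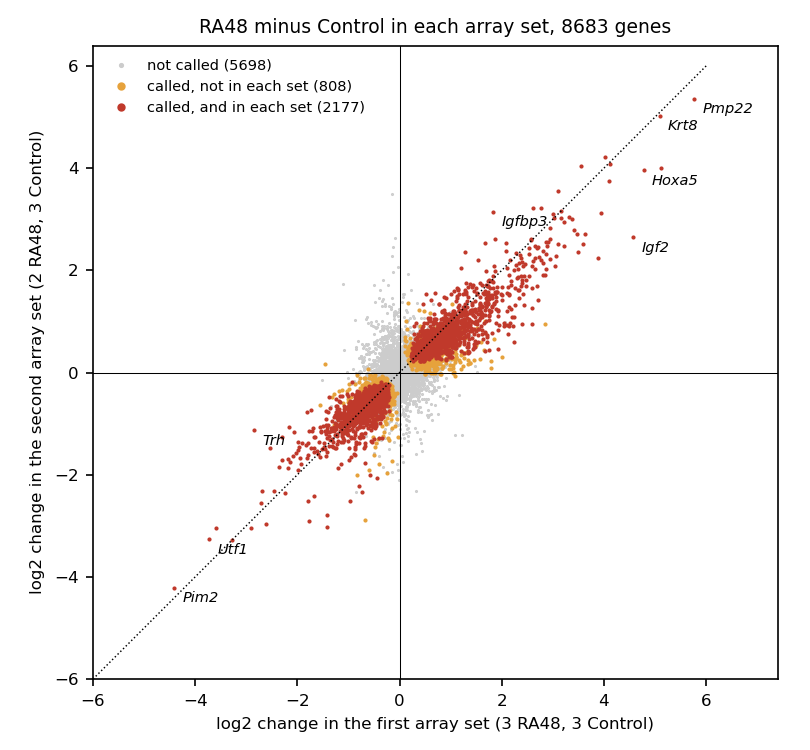
Log2 change, RA48 minus Control, of each of 8683 genes in the first array set (x axis, 3 RA48 and 3 Control arrays) and in the second (y axis, 2 RA48 and 3 Control arrays), coloured by whether the gene was called and called alike in each set; the dotted line marks equal change. The 2177 genes called in each set follow that line, with Pim2 at 1 end and Pmp22 at the other, while Igf2 and Trh changed less in the second set and Igfbp3 more.

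Genes of the retinoid pathway, coactivators among them, were called about as often as all genes tested (37.5% against 34.4%). Of 16 measured genes of the retinoid pathway 4 rose (2 under the random block) and 2 fell (4 with the replicate block), with a median change of 0.05 against -0.02 over all genes tested. Stra6, the retinol transporter, had 1.99, 1.94, 1.65, 1.16 and 1.02 on the RA48 arrays, against -0.64, -0.51 and 0.05 in Control, a rise of 1.98 ± 0.17 (3.95-fold, adjusted p = 1.01e-08). The groups lay apart, with the first-set arrays the higher ones in RA48. Aldh1a1, which makes retinoic acid from retinal, rose by 0.82 ± 0.18 (adjusted p = 0.00122), by 1.38 in the first set and 0.18 in the second (adjusted p = 0.12 with the random block). Rxrg, a partner receptor, fell by 0.61 ± 0.11 (adjusted p = 0.000228, 0.16 with the random block). Rara, a receptor of the same family as Rarb, had 2.01, 2.03, 1.95, 1.17 and 1.34, against 0.55, 1.14 and 1.55 in Control, so the groups overlapped, and its rise of 0.59 ± 0.22 passed narrowly (adjusted p = 0.0479, 0.33 with the random block). Fabp5, a carrier that can bring retinoic acid to another receptor class, fell by 1.29 ± 0.41 (adjusted p = 0.0207, 0.11 with the random block), and its groups overlapped as well. Both calls were marginal and were lost without any 1 of Control replicates 4 to 6 or RA48 replicates 1 to 3. The adjusted p was then 0.0964 to 0.126 for Rara and 0.05 to 0.0637 for Fabp5.

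Other nuclear receptors numbered 21 measured, of which 4 rose (2 under the random block) and 3 fell, so that 33.3% were called, against 34.4% of all genes. Nr2f1, an orphan receptor known as COUP-TFI and induced by retinoic acid in embryonal carcinoma cells, stood at -0.28, -0.24, -0.04, -0.11 and 0.08, against -3.13, -2.10 and -1.37 in Control, and rose by 2.04 ± 0.34 (4.12-fold, adjusted p = 6.41e-05). Its relative Nr2f2 rose by 1.51 ± 0.15. Both changed more in the first set (2.70 and 1.75) than in the second (1.42 and 1.23). Nr5a1, the steroidogenic factor gene, fell by 1.58 ± 0.12 (2.98-fold lower, adjusted p = 1.11e-09).

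Of 23 measured Hox and TALE genes 9 rose, 0 fell and 14 were not called (8 rises held in both sets), whereas 18.0% of all genes rose. Of 50 measured SOX, FOX, PAX, LIM and Teashirt factors 20 rose (11 under the random block), 1 fell and 29 were not called. Meis2, a TALE cofactor that binds DNA beside Hox proteins, had 1.21, 1.20, 1.07, 1.01 and 0.79, against -1.20, -1.06 and -0.76 in Control, and rose by 2.10 ± 0.16 (adjusted p = 7.32e-10). The groups were apart by more than their own width. Hoxb9, a trunk Hox gene, rose by 1.88 ± 0.21, by 2.59 in the first set and 0.96 in the second. Its neighbour Hoxb8 rose by 1.48 ± 0.30 (adjusted p = 0.15 with the random block). Hoxa6 (0.49) and Hoxd12 (-0.40, adjusted p = 0.00103 with the replicate block) did not pass, and the median of the list was 0.19.

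Tshz1, a zinc-finger factor of the trunk, had 1.68, 1.70, 1.74, 1.73 and 2.10, against -2.21, -2.10 and -1.47 in Control, a 13.7-fold rise, and Tshz2 rose by 1.82 ± 0.18. Prdm6, a smooth muscle-enriched repressor of the PR-domain family, had 1.46, 1.42, 1.75, 0.91 and 0.92, against -2.38, -1.85 and -1.32, and rose 8.95-fold (3.16 ± 0.21, adjusted p = 7.51e-11). Both factors were thus below the embryo pool in every Control array and above it in every RA48 array. Id2, an inhibitor of basic helix-loop-helix factors, rose by 1.83 ± 0.22, and Foxa1, a pioneer factor of endoderm, by 1.21 ± 0.16. The faller was Foxo1, an insulin-responsive factor (-0.94 ± 0.09). Of 17 early neural and brain patterning factors 2 rose and 2 fell. Irx3, a homeodomain factor of the neural tube, rose by 3.12 ± 0.20 and Otx2, of the forebrain and epiblast, fell by 2.77 ± 0.08. Gsc, the organizer gene goosecoid, fell by 1.87 ± 0.26 and was the sole faller of 19 primitive streak and mesoderm factors, of which 4 rose, Gata6 most (2.04 ± 0.18).

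Pluripotency and gene-silencing genes fell more often than they rose, whereas 16.4% of all genes fell and 18.0% rose. Of 28 pluripotency and early embryo genes 6 rose (2 under the random block) and 14 fell, 13 of the falls in both sets, with a median of -0.48. Of 29 genes for DNA methylation and Polycomb repression 3 rose (5 with the replicate block) and 11 fell, 10 of the falls in both sets. Phc1, a Polycomb subunit, had 1.11, 1.15, 1.14, 0.88 and 1.12, against 2.34, 2.89 and 3.35 in Control, and was 3.46-fold lower (-1.79 ± 0.13, adjusted p = 3.41e-10). Cbx7, the chromodomain subunit that prevails in embryonic stem cells, was 3.02-fold lower (-1.59 ± 0.15), and Jarid2, which guides Polycomb complex 2 to its sites, 2.24-fold lower (-1.16 ± 0.11). No overlap between the groups was seen for these 3 genes. Both de novo methyltransferase genes fell, with changes of -3.31 ± 0.14 for Dnmt3b and -1.15 ± 0.11 for Dnmt3a. Mbd2, which reads methylated DNA, rose instead, with -0.66, -0.59, -0.61, -0.70 and -0.78 in RA48, against -2.79, -2.50 and -2.19 in Control (1.80 ± 0.10, adjusted p = 5.01e-12).

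Of 11 histone and histone chaperone genes 3 rose (5 with the replicate block) and 3 fell. Macroh2a1, a variant histone of silent chromatin that is scarce in pluripotent cells, had 0.89, 1.00, 1.10, 1.17 and 1.15, against -2.43, -1.99 and -1.71 in Control. All RA48 arrays thus lay far above all Control arrays, an 8.39-fold rise (3.07 ± 0.13, adjusted p = 5.74e-14), and the related Macroh2a2 rose by 0.76 ± 0.11. The chaperones Nasp (-0.98 ± 0.24, adjusted p = 0.064 with the random block) and Asf1a (-0.87) fell. Among 62 genes for chromatin remodelling and histone modification 7 rose and 11 fell (3 and 3 under the random block), with a median of 0.01. These genes were called less often than all genes (29.0% against 34.4%). Prmt2, an arginine methyltransferase, rose by 1.50, and Hmga2, an architectural chromatin protein of growing embryonic cells, by 1.38 (adjusted p = 0.055 with the random block), while the deacetylase Sirt1 (-0.80) and the remodelling subunit Smarcd1 (-0.63) fell. The 11 falls of this list were 7 without RA48 replicate 3 and 17 with the replicate block.

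In each of the 7 signalling lists that follow more genes rose than fell, as they did over all genes (18.0% and 16.4%). Under the random block rises and falls were equal in the cytokine and STAT list (3 each) and the Notch list (1 each). Of the Notch list 17.4% was called, against 34.4% of all genes. Of 36 receptor tyrosine kinases and ligands 16 rose and 1 fell (4 with the replicate block). Gfra1, the co-receptor for glial-derived neurotrophic factor, had 1.45, 1.74, 1.69, 1.36 and 1.55, against -2.72, -1.73 and -1.56 in Control, and rose 11.7-fold (3.55 ± 0.25, adjusted p = 2.08e-10). Errfi1, a feedback inhibitor of the epidermal growth factor receptor, had 1.65, 1.71, 1.62, 1.94 and 1.96, against -1.62, -1.32 and -1.05 (3.13 ± 0.16). The groups were apart for both genes. Hbegf, a ligand of that receptor, rose by 1.84 ± 0.28, Flt1, a receptor for vascular endothelial growth factors, by 1.60 ± 0.10. Kitl, stem cell factor, and its receptor Kit rose together, by 2.09 ± 0.12 and 1.86 ± 0.17.

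Fibroblast growth factor genes moved both ways. Fgf4, the epiblast ligand, fell by 2.10 ± 0.15 and Spry4, a feedback inhibitor, by 1.02 ± 0.17, whereas Fgf10, a mesenchymal ligand, rose by 1.28 ± 0.19 and the receptor gene Fgfr2 by 1.49 ± 0.14. Of 34 measured genes in this list 10 rose (6 under the random block) and those 2 fell (4 with the replicate block). In the cytokine and STAT list (28 measured, 7 rose and 6 fell, 3 and 3 under the random block) the receptor of leukaemia inhibitory factor, Lifr, fell by 0.94 ± 0.09 and Stat6 by 1.41 ± 0.12, while the kinases Jak1 and Jak2 rose by 1.15 ± 0.13 and 1.25 ± 0.09. Stat4 fell by 1.44 ± 0.32 (adjusted p = 0.12 with the random block).

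Of 40 genes of TGF-beta, BMP and Nodal signalling 14 rose (9 under the random block) and 3 fell. Tgfb2, a ligand, rose by 1.90 ± 0.16 and Ltbp1, which stores latent ligand in the matrix, by 1.34 ± 0.09, whereas Tgfb3 fell by 0.84 ± 0.11 and Fst, an antagonist of activin, by 1.00 ± 0.14. In the Wnt list 13 of 39 rose and 1 fell (4 and 0 under the random block). Ror1, a receptor of noncanonical ligands, rose by 2.72 ± 0.24, and Dkk1, a secreted inhibitor, had 0.91, 0.97, 1.17, -0.48 and -0.18, against -1.73, -1.51 and -0.99 in Control, a rise of 1.92 ± 0.33. The second-set arrays were the low ones of RA48 for Dkk1, yet still above Control. Of 12 Hedgehog pathway genes 6 rose and 0 fell. They include Gas1 (3.13 ± 0.20) and Boc (1.00 ± 0.14), which help the ligand bind, the effectors Gli2 and Gli3 (1.05 each, SE 0.14 and 0.11), and Hhip, which traps the ligand (1.46 ± 0.19). In the Notch list 3 of 23 rose (1 without RA48 replicate 1) and 1 fell, against 6 and 3 with the array set as a block, with Hes1, a target factor, at 0.76 and Dtx1, a ubiquitin ligase, at -0.79.

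Of 42 axon guidance genes, which also steer other migrating cells, 14 rose and 3 fell (18.0% and 16.4% over all genes). All 14 rises held in both sets. Efnb1 had 1.04, 1.06, 0.92, 0.99 and 1.17, against -0.93, -0.76 and -0.60 in Control, and rose by 1.79 ± 0.09 (adjusted p = 4.92e-13). The ephrin gene Efna5 rose by 1.64 ± 0.11 and Epha4, a receptor of both ephrin classes, by 1.47 ± 0.12, so ligands and a receptor rose in the same cultures. Sema4d, a transmembrane semaphorin, fell by 0.73 ± 0.11.

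The structural genes of the cell surface and cytoskeleton gave the most one-sided rises. Of 46 actin cytoskeleton genes 27 rose and 0 fell, with a median of 0.71, of 19 smooth muscle contractile genes 14 rose and 0 fell (median 1.12), of 20 galectins, annexins and S100 proteins 12 rose and 0 fell (0.86), and of 23 tetraspanins and other four-pass proteins 15 rose and 0 fell (0.63). Over all genes 18.0% rose. With the random block 19, 10, 10 and 11 of these rises remained. The lists overlap with gene sets whose rise was already known from these arrays, so the counts are a description.

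Acta2 itself had -0.37, -0.48, -0.11, -0.32 and -0.40 on the RA48 arrays, against -5.91, -4.79 and -4.23 in Control, a 23.6-fold rise (4.56 ± 0.22, adjusted p = 4.24e-13) that brought it close to its level in the embryo pool. Of 15 regulators of smooth muscle genes 6 rose and 2 fell. Among them Tead1, which binds the MCAT element of muscle promoters, rose by 1.01 ± 0.09, Smad3, a TGF-beta effector, by 0.70 ± 0.11, and Klf4, which represses contractile genes in smooth muscle, by 0.79 ± 0.21 (adjusted p = 0.27 with the random block).

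Tgfb1i1, a focal adhesion cofactor, had 0.68, 0.76, 0.83, 0.88 and 0.80, against -2.57, -2.04 and -1.59 in Control, a 7.16-fold rise (2.84 ± 0.16, adjusted p = 5.01e-12). Kirrel, an adhesion protein of the immunoglobulin family, had 1.85, 1.81, 1.87, 1.85 and 1.79, against -1.41, -0.90 and -0.65. The RA48 arrays nearly coincided for Kirrel, and the groups lay far apart for both genes. Cfl2, the muscle cofilin, rose by 1.72 ± 0.10, Lpp, a focal adhesion scaffold, by 2.49 ± 0.11, and Parva, which links integrins to actin, by 2.14 ± 0.14.

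Of 37 integrin and focal adhesion genes 16 rose and 2 fell. Itgb1, the shared beta chain, rose by 1.65 ± 0.28, while Itga6, the laminin receptor chain of stem cells, fell by 0.62 ± 0.13 (adjusted p = 0.13 with the random block). Of 30 genes of cadherin-type adhesion 12 rose (6 under the random block) and 3 fell. Cdh11, a mesenchymal cadherin, rose by 2.19 ± 0.40 and Epcam fell by 2.00 ± 0.26. Of 31 tubulin and motor genes 13 rose and 6 fell (7 and 0 under the random block), and Dctn1, a dynactin subunit, rose most (1.79 ± 0.17). The 6 falls of that list were 3 without Control replicate 4 or 5 or RA48 replicate 2. Krt8, Krt18, Krt19 and Vim rose among 17 intermediate filament genes, of which 6 rose and 1 fell. Vim, the mesenchymal filament, had 1.33, 1.32, 1.62, 2.13 and 2.08, against -1.18, -0.36 and 0.14 in Control (2.13 ± 0.20, adjusted p = 2.65e-08).

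The promoter of Myl9, which encodes a regulatory myosin light chain, is shown because Myl9 is the gene of the contractile list with the largest rise among those with a CArG box, the binding motif of serum response factor, in this window. Its rise was 2.33 ± 0.23 (5.02-fold, adjusted p = 5.55e-08). Capitals mark the box (RefSeq, GRCm38.p6, chr2:156775214-156775513, plus strand, 5′ to 3′), which covers bases -161 to -152 from the start:
Myl9: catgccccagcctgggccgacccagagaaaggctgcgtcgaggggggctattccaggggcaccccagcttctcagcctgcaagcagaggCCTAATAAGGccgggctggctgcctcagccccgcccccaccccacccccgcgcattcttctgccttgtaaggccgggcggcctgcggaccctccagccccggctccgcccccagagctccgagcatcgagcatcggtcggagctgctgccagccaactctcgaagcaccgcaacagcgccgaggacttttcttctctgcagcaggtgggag
A strict CArG box on either strand was present in 535 of 32851 windows (1.63%) and in 3 of the 17 contractile genes with a window, those of Myl9, Myl6 and Vcl, the last 2 named because the search returned them. A match describes letters in this window only. Among the 113 tested genes with the box 25 rose and 17 fell, with a median change of 0.00. Over all genes 18.0% rose and 16.4% fell, with a median of -0.02, so no response is read from the box.

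Of 22 basement membrane genes 12 rose (18.0% over all genes), 0 fell and 10 were not called, and all 12 rises held in both sets. Agrn, the heparan sulfate proteoglycan agrin, had 0.79, 0.75, 0.59, 0.10 and 0.16, against -1.92, -1.73 and -1.44 in Control, and rose by 2.18 ± 0.16. Of 41 interstitial matrix genes 14 rose (8 under the random block, 22 with the replicate block), 0 fell and 27 were not called. Ccn2, the connective tissue growth factor gene, stood at 2.34, 2.38, 2.44, 2.48 and 2.57, against -0.78, -0.55 and -0.39 (3.00 ± 0.17), and Thbs1, thrombospondin 1, rose by 2.88 ± 0.16. For Agrn and Ccn2 no RA48 array came near the Control arrays.

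Of 20 collagen-modifying and secretory genes 12 rose (3 under the random block) and 1 fell. Creb3l2, a membrane-bound factor that drives secretion in collagen-producing cells, had 0.21, 0.40, 0.41, 0.51 and 0.55, against -2.80, -2.24 and -1.85 in Control, and rose 6.46-fold (2.69 ± 0.13). Serpinh1, the collagen chaperone, rose by 1.46 ± 0.29, and Pcolce2, a procollagen protease enhancer, fell by 1.11 ± 0.14. Of 22 proteoglycan genes 12 rose (6 under the random block) and 1 fell, among them Hs6st1 (1.70 ± 0.16) and Ext1 (0.94 ± 0.07), which sulfate and polymerize heparan sulfate. In the list of extracellular proteases and inhibitors 16 of 39 rose (10 under the random block) and 4 fell (2 without RA48 replicate 4, 1 under the random block). Serpinf1, the pigment epithelium-derived factor, rose by 3.24 ± 0.30, and Prss23, a serine protease, by 3.21 ± 0.17.

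**Figure D3:**
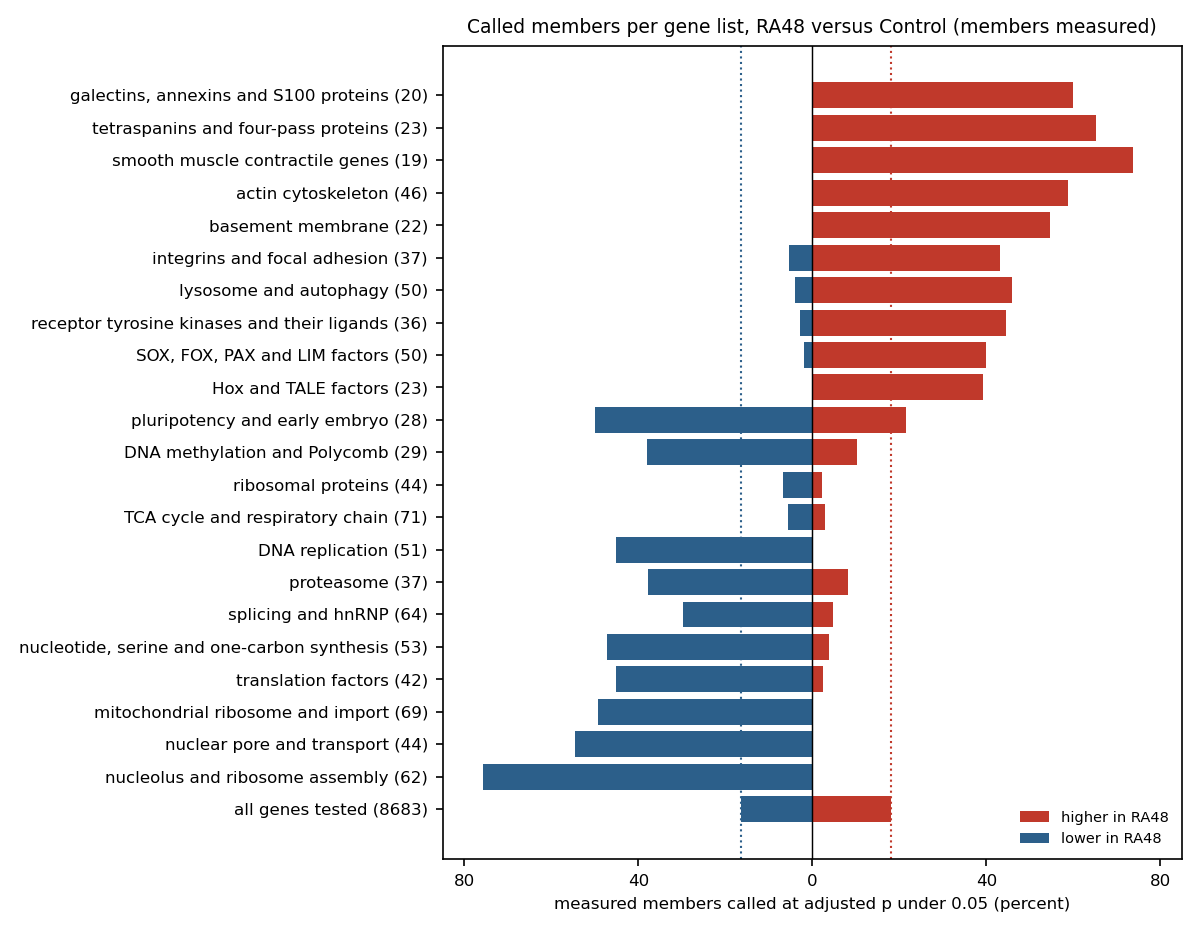
Share of the measured members of each gene list called higher in RA48 (right of 0, red) or lower (left of 0, blue) than Control, in percent, with the number of members measured in parentheses and dotted lines at the shares over all 8683 genes, 18.0% and 16.4%. Structural lists reach to the right, and lists of ribosome assembly and biosynthesis to the left.

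Most genes measured for ribosome assembly fell. Of 62 measured genes of the nucleolus and ribosome assembly 47 fell and 0 rose, 43 of them in both sets and 28 under the random block. Their median change was -0.60, against -0.02 over all genes, of which 16.4% fell. Single changes were moderate, from -1.21 to 0.09, and 60 of 62 genes had a change below 0. Gtpbp4, a GTPase of the large subunit precursor, had 1.51, 1.67, 1.64, 1.90 and 2.13, against 2.83, 2.99 and 3.19 in Control, and was 2.31-fold lower (-1.21 ± 0.11, adjusted p = 1.16e-08). The groups lay apart. Ddx18, a nucleolar helicase, had 1.17, 1.32, 0.85, 0.65 and 0.48, against 1.62, 2.16 and 2.45, and was 2.27-fold lower. Nop56, a core protein of box C/D particles that guide rRNA methylation, fell by 1.05 ± 0.21, and Ddx21, a helicase of rRNA transcription, by 0.98 ± 0.09. Polr1d, a subunit shared by RNA polymerases I and III, was among those not called (0.09 ± 0.15).

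Other lists that lie near protein synthesis, transport through the nuclear pore and mitochondrial import also held more falls than rises. Of 69 genes of the mitochondrial ribosome and import 34 fell and 0 rose (median -0.41), of 44 nuclear pore and transport genes 24 fell and 0 rose (-0.38), and of 42 translation factors 19 fell and 1 rose (-0.40). With the random block 8, 6 and 6 of these falls remained. Mrpl15, a large-subunit protein of the mitochondrial ribosome, had 0.28, 0.52, 0.43, 0.90 and 0.81, against 1.40, 1.86 and 1.96 in Control (-1.18 ± 0.12, 2.27-fold lower). No array of Mrpl15 crossed between the groups. Xpo4, an export receptor, fell by 1.06 ± 0.12, Nup160, a scaffold nucleoporin, by 0.91 ± 0.13, and Eif2s2, the beta subunit of initiation factor 2, by 0.85 ± 0.09. Of 24 tRNA synthetases 6 fell (3 under the random block) and 0 rose, led by Tars (-0.93) and Lars (-0.85).

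Ribosomal proteins and the respiratory chain gave fewer calls. Of 44 ribosomal protein genes 1 rose and 3 fell (9.09% called, against 34.4% of all genes), with a median of -0.14, and of -0.02 in the first set and -0.01 in the second. These genes were measured less precisely, with a median standard error of 0.33, against 0.11 in the nucleolar list and 0.14 over all genes, so the counts of the lists cannot be set against each other directly. With the array set as a block 1 rose and 7 fell, and with the replicate block 6 fell. Of 71 genes of the TCA cycle and respiratory chain 2 rose and 4 fell (0 and 1 under the random block). The median was -0.01 and the median standard error 0.18. With the replicate block 9 rose and 12 fell, and with the set as a block 14 rose and 14 fell, whereas in the nucleolar list 0 rose and 53 fell. The 4 falls were 7 without Control replicate 3 and 8 without RA48 replicate 4. Idh3a, an enzyme of the cycle, fell by 0.69 ± 0.14.

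**Figure D4:**
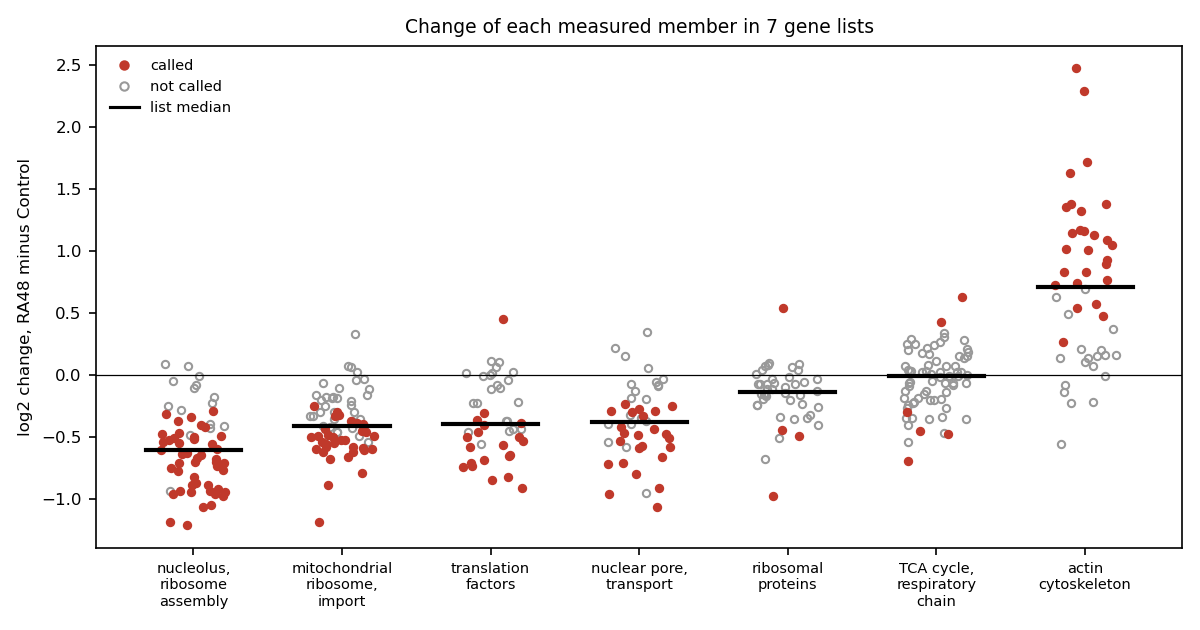
Log2 change, RA48 minus Control, of each measured member of 7 gene lists (points, filled where called at an adjusted p under 0.05), with the list median as a bar. The nucleolar list has its median at -0.60 with no called member above 0, the TCA cycle and respiratory chain list at -0.01, and the actin cytoskeleton list at 0.71.

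Of 53 enzymes of nucleotide, serine and one-carbon synthesis 25 fell and 2 rose (16.4% and 18.0% over all genes), with a median of -0.35. Among the falls 21 held in both sets and 13 passed under the random block. Mthfd1, a folate enzyme that supplies one-carbon units, had 0.73, 0.83, 0.69, 0.81 and 0.84, against 2.25, 2.36 and 2.50 in Control, and was 3.00-fold lower (-1.58 ± 0.08, adjusted p = 5.34e-13). Cth, which makes cysteine from cystathionine, had -0.03, 0.12, -0.08, -0.03 and -0.03, against 1.37, 1.50 and 1.90, and was 3.04-fold lower. Both genes were tightly grouped in RA48 and did not overlap with Control. Hprt, the purine salvage enzyme that often serves as a control gene, was 2.57-fold lower (-1.36 ± 0.15), and Sms, spermine synthase, 2.56-fold lower (-1.35 ± 0.08).

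Among genes of DNA copying and repair most calls were falls, whereas 16.4% of all genes fell and 18.0% rose. Of 51 DNA replication genes 23 fell and 0 rose (12 in both sets, median -0.27, 15 without RA48 replicate 3, 4 under the random block), with Orc4 of the origin recognition complex at -0.96 ± 0.17. Of 49 DNA repair genes 19 fell (5 under the random block) and 2 rose, with the mismatch repair gene Msh6 at -0.93 ± 0.09 and the uracil glycosylase Ung at -0.86 ± 0.13. Of 44 mitosis and spindle genes 11 fell (7 without RA48 replicate 1 or 3, 3 under the random block) and 5 rose (1 under the random block), with the checkpoint kinase Bub1 at -0.79 ± 0.09 and Anln, a scaffold of the cleavage furrow, at 0.92. Of 64 splicing genes 19 fell and 3 rose, with Ptbp2 at -1.10 ± 0.09. Under the random block 3 of these falls remained, a share near that over all genes (445 of 8683). Mycn, a growth factor-responsive regulator of ribosome genes and others, fell by 0.95 ± 0.15, with 3.23, 3.38, 3.17, 2.87 and 2.99 in RA48, against 3.71, 4.06 and 4.41 in Control. All RA48 arrays were below the Control arrays, yet still well above the embryo pool.

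In the lists for oxidative stress and glycolysis 50% and 40.5% were called, against 34.4% of all genes, and most of these calls were falls. Of 38 genes of glutathione and oxidative stress 15 fell and 4 rose (8 and 1 under the random block). Cbr3, a carbonyl reductase, fell by 1.43 ± 0.13, Gclm, a subunit of the rate-limiting glutathione enzyme, by 1.05 ± 0.19, and Hmox1, haem oxygenase 1, by 1.00 ± 0.14. Mt1, metallothionein 1, had -3.06, -2.83, -2.66, -1.87 and -1.85, against -1.76, -1.01 and -0.48 in Control (-1.44 ± 0.33), and the first-set arrays were the lower ones in RA48. Gpx3, the secreted glutathione peroxidase, rose 4.04-fold (2.01 ± 0.15). Of 37 glycolysis genes 13 fell (4 under the random block) and 2 rose (4 with the replicate block), and Slc16a3, a lactate exporter (-1.03 ± 0.12), Pdhb, of pyruvate dehydrogenase (-1.01 ± 0.16), and Pfkm, a phosphofructokinase (-0.86 ± 0.13), were among the falls.

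Of 20 genes of sterol synthesis and uptake 7 rose (2 under the random block) and 0 fell. Abca1, which exports cholesterol, had -1.26, -1.10, -0.89, -0.68 and -0.55, against -5.01, -3.91 and -3.07 in Control, and rose 8.25-fold (3.04 ± 0.27). Both groups lay below the embryo pool, and they did not overlap. Plin2, which coats lipid droplets, rose 7.95-fold (2.99 ± 0.21), and Acsl5, a fatty acid activating enzyme, fell by 1.66 ± 0.16. Among 56 transporters 9 rose and 11 fell (3 and 7 under the random block). Transporters were called about as often as all genes (35.7% against 34.4%). Slc7a7, a subunit of a cationic amino acid exchanger, had 0.63, 0.67, 0.24, 0.85 and 1.11, against 2.44, 2.60 and 3.08 (3.97-fold lower). Slc39a8, a zinc and manganese importer, was 3.95-fold lower and Slc7a3, an arginine importer, 3.06-fold lower.

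Lysosome and vesicle genes rose more often than they fell. Of 50 lysosome and autophagy genes 23 rose and 2 fell, or 4 with the replicate block (14 rises in both sets, 5 under the random block, 15 without Control replicate 3), with Map1lc3a, an autophagosome marker, at 1.06 ± 0.14 and Lamp2, a lysosomal membrane protein, at 1.01 ± 0.09. Of 102 vesicle traffic genes 33 rose and 5 fell, or 8 with the replicate block (20 rises in both sets, 6 rises and 0 falls under the random block). Snx1, a sorting nexin, stood at 1.28 ± 0.10 and Vamp8, a fusion protein of endosomes, at 1.19 ± 0.27. The proteasome went the other way, with 14 of 37 falling (1 under the random block) and 3 rising. Under the random block 638 of all 8683 genes rose and 445 fell. Vesicle rises and proteasome falls were then smaller shares of their lists than these. Cytosolic chaperones split, 12 of 46 falling and 7 rising (6 and 2 under the random block): Hsph1, a heat shock protein of the cytosol, fell by 1.03 ± 0.15, and Hspb8, a small heat shock protein, rose by 1.27 ± 0.16.

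Of 35 immediate early and stress factors 17 rose (7 under the random block), 4 fell and 14 were not called. Fosl2, a subunit of AP-1, had 0.22, 0.19, 0.29, 0.28 and 0.28, against -2.16, -1.73 and -1.47 in Control, and rose 4.07-fold (2.02 ± 0.10, adjusted p = 4.24e-13). Jun, another AP-1 subunit, rose by 1.48 ± 0.27, and Bhlhe40, a repressor of the clock, by 1.76 ± 0.15, while Klf9, a hormone-responsive factor, was 2.68-fold lower (-1.42 ± 0.11). In the interferon and antigen presentation list 10 of 39 rose and 8 fell (5 and 1 under the random block), so the list had no single direction. The shares over all genes were 18.0% and 16.4%. B2m, the invariant chain of class I molecules, rose by 1.74 ± 0.09 and Ifitm3, a membrane protein against virus entry, by 2.83 ± 0.22, whereas Bst2, tetherin, fell by 0.90 ± 0.12.

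Markers of other cell types that such cultures could hold were counted in the same way. Over all genes 18.0% rose and 16.4% fell. Of 21 neuronal genes 3 rose and 4 fell. The rises were 1 under the random block, and 1 without Control replicate 1 or 2 or RA48 replicate 3. The falls were 2 under the random block, and 2 without any 1 of Control replicates 4 to 6 or RA48 replicates 1 to 3. Of 3 glial genes 0 rose and 1 fell, and of 12 blood cell genes 1 rose and 0 fell. Of 23 heart and skeletal muscle genes 2 rose (4 with the replicate block) and 0 fell. Of 13 trophoblast genes 2 rose and 0 fell, and of 13 germ line genes 3 rose and 3 fell. Of 12 endothelial genes 6 rose and 0 fell, of 12 neural crest genes 5 rose and 0 fell, and of 19 genes of visceral and parietal endoderm 11 rose and 0 fell (2, 3 and 7 rises under the random block). The endoderm list shares laminin and type IV collagen genes with the basement membrane list, so the counts of these lists are not independent. Gap43, a growth cone protein, had 0.30, 0.76, 0.31, 0.57 and 0.59, against -2.59, -2.09 and -1.65 in Control (5.99-fold), while Gng3, a neuronal G protein subunit, was 2.60-fold lower. Of the neuronal list 33.3% was called, against 34.4% of all genes, so no common direction is read from it. Kdr, a receptor of endothelium and early mesoderm, rose by 1.24 ± 0.11 from below the embryo pool, at -0.65, -0.77, -0.73, -0.77 and -0.89 in RA48 and -2.39, -1.99 and -1.69 in Control. The part of other cell types in these changes was not tested.

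The change over the first 48 h was set against that over the next 48 h as the first step (RA48 minus Control) minus the second (RA96 minus RA48). Both share the RA48 arrays, so the steps are not independent. RA96 replicates 1 and 3 lie in the first array set and replicates 2, 4, 5 and 6 in the second, so the sets are not balanced between RA48 and RA96. With the array set as a block, 2791 genes were called for the step difference and 3128 for RA96 versus RA48. Step changes of single genes are given without a check in each set. The difference was called in 1573 genes (18.1%), among them 798 of the 1564 that had risen and 545 of the 1421 that had fallen. Since the difference contains the first step, genes called in that step are favoured among its calls, and no timing is read from these counts. With the random block the difference was called in 231 genes, and RA96 versus RA48 in 199 genes in place of 1949. Of the 1564 genes that had risen, 322 rose again, 279 fell and 963 were not called in RA96 versus RA48, where 22.4% of all genes were called. Of the 1421 that had fallen, 196 fell again, 120 rose and 1105 were not called, and a gene not called is not shown to have stopped. Without RA48 replicate 1, RA96 versus RA48 was called in 1291 genes. The nucleolar list, with its median of -0.60 in the first step, had 0.01 in the second, with 2 genes rising and 4 falling, whereas DNA replication genes had medians of -0.27 and -0.24, with 18 of 51 falling in the second step.

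The largest positive difference was that of Lefty1, a Nodal inhibitor, at 5.69 ± 0.33 (adjusted p = 1.26e-10), with 2.03 in the first step and -3.65 in the second. Gfra1 (5.48 ± 0.43) and Irx3 (5.18 ± 0.35) rose and then fell too, with second steps of -1.93 and -2.06. Pmp22 (5.31 ± 0.34) and Krt8 (4.55 ± 0.26) had most of their rise behind them at 48 h, with second steps of 0.24 and 0.49. The largest negative differences were those of Pim2 (-4.06 ± 0.24), Utf1, which encodes a chromatin protein of pluripotent cells (-3.09 ± 0.23), Gpr37, an orphan receptor (-3.0 ± 0.22), Sgk1, a serum- and glucocorticoid-induced kinase (-2.95 ± 0.40), and Rerg, a Ras-like growth inhibitor (-2.92 ± 0.27). Their second steps were between -0.40 and 0.53. Tgfb2 kept its pace, with 1.90 in the first step and 2.37 in the second.

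**Figure D5:**
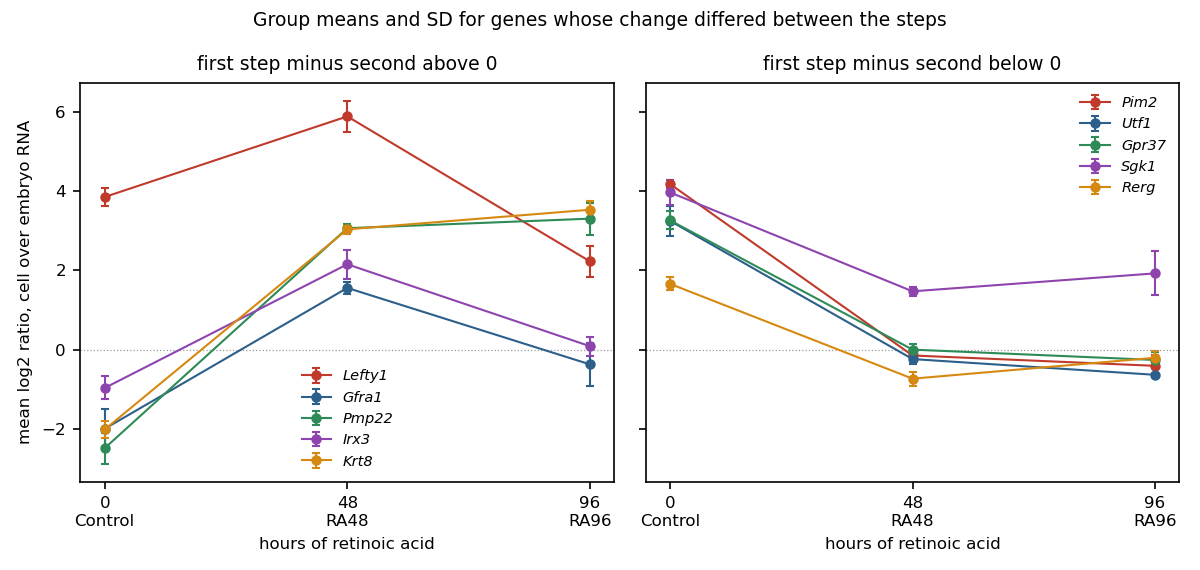
Mean log2 ratio of cell over embryo RNA with the SD at 0 h (Control, n = 6), 48 h (RA48, n = 5) and 96 h (RA96, n = 6) of retinoic acid, for the 5 genes with the largest positive (left) and negative (right) difference between the first and the second step. Lefty1, Gfra1 and Irx3 peak at 48 h, Pmp22 and Krt8 level off, and the 5 falling genes have reached their lower level by 48 h.

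The size of the change differed between the array sets for 275 genes (3.17%) by limma's interaction of group and set, 128 of them among the called genes. Igf2, a fetal growth factor, rose by 4.57 in the first set and 2.65 in the second, Gas1 by 3.88 and 2.25, and Hoxb9 by 2.59 and 0.96. Trh, which encodes thyrotropin-releasing hormone, fell by 2.85 and by 1.13. Igfbp3, a binding protein of insulin-like growth factors, went the other way, with rises of 1.83 and 3.15. These 5 interactions had adjusted p between 0.00513 and 0.0174. The count of 275 was 127 and 143 without Control replicates 4 and 5, and 88, 112, 86 and 101 without RA48 replicates 1, 2, 3 and 5.

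Probes without 1 gene symbol were lower more often than higher. Of 9180 such probes 1657 (18.1%) were called, 560 higher and 1097 lower in RA48, and 964 were called alike in each set. The 3 probes that fell by more than 4 had no gene symbol in the table of probes, and the largest fall of all rows, -5.91, was 1 of them, larger than that of any named gene. The genes behind them were not analysed here.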

How the data were processed

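RNA of A404 cells was compared with pooled embryo RNA on 23 Agilent 2-colour arrays, of which 5 RA48 and 6 Control arrays give the main comparison and 6 RA96 arrays the next step. Per the labels, arrays were scanned and quantified with Agilent software. The authors deposited 1 log10 ratio per probe and array; its base, centring and direction are not stated, and depth and detection cannot be given from ratios. The number of arrays limits the precision.

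Of 21446 deposited rows, 1166 with control-like values were left out. Ratios were divided by log10(2) and probes averaged per symbol, with symbols from the platform annotation (11100 probes had 1 symbol, 442 several, 8738 none). This gave 8683 genes and 9180 single probes. Group means were fitted to all arrays with limma 3.58.1 in R 4.3.3 (lmFit, eBayes), p-values were adjusted by Benjamini-Hochberg over 17863 rows, and rows with an adjusted p under 0.05 were called. On simulated data with 17863 rows, changes of 0.5, 1 and 2 in RA48 against Control were recovered in 19.4%, 76.1% and 95.5% of changed rows. Only 66 or 67 rows were changed at each size, against 4642 rows called here, and array sets were not simulated. These shares therefore do not carry over to these arrays.

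Gene lists, members and tests were chosen with earlier results of these data known. Lists are described by counts and medians, with no test. Counts of 3 or fewer in a list often change when 1 array is left out and are not read. The genes named are the 4 marker genes and Acta2, the 30 largest rises and falls, up to 5 rises, 5 falls and 4 genes not called from each list, the 5 largest step differences in each direction, and up to 4 genes with opposed probes.

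Replicate numbers were checked for pairing. Deviations of RA48 and Control arrays with 1 number correlated at 0.369 to 0.517 in all 5 pairs, but the numbers also follow the array sets, and within sets these correlations were -0.155 to 0.00805. Alternatives were other scalings, single probes, control-like rows kept, only the 11 arrays, blocks for replicate or set, array weights, each set alone, another variance model, a stricter threshold and leaving out single arrays. Promoter windows are from RefSeq. One gene list is not reported here.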

Additional observations from a re-analysis of the deposited data

Results flagged for a closer look

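Single arrays stood apart within their group for 15 of 380 gene and group pairs tested with Dixon's criterion, where chance flags about 1 in 20. In RA48 these were replicate 5 for Tshz1 (2.10), Lifr (0.39), Gpr37 (-0.25) and Ube2v2 (1.04), replicate 4 for Phc1 (0.88) and replicate 2 for Cth (0.12). In Control they were replicate 3 for Krt8 (-2.44), Ltbp1 (-1.95), Thbs1 (-2.47) and Bhlhe40 (-1.71), replicate 5 for Prss23 (-1.80) and Plin2 (0.40), replicate 2 for Hmga2 (1.69) and Hsph1 (1.54), and replicate 6 for Map4 (-0.51). Each value is the log2 ratio on that array. None of these genes lost its call when any 1 array was left out.

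The change between RA48 and Control differed between the array sets for 275 genes by limma's interaction of group and set, in Igf2, Gas1, Hoxb9 and Trh with the larger change in the first set and in Igfbp3 with the larger one in the second.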

How the results depend on the processing

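Of the 190 genes named, 187 were called, and no log2 change among the 190 turned its sign in any of 24 alternatives. The random block of group and set ended 13 of those calls, quantile normalization 5, the second array set alone 5, only the 11 arrays 3 and a threshold of 0.01 3. Leaving out 1 array ended those of Rara, Fabp5 and Ppbp. Leaving out single Control or RA48 arrays gave 4168 to 4663 rows and 2692 to 2941 genes called in RA48 against Control, 1125 to 1733 genes for the step difference, 1291 to 2171 for RA96 versus RA48 and 86 to 341 for the interaction of group and set.

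These counts of calls moved by more than 1.5 times. The random block gave 1437 rows, 1083 genes and 231 genes for the step difference. Array weights, whose estimate did not converge, gave 8135, 4594 and 5182. The array set as a block gave 7029 rows and 2791 genes for the step difference, the first set alone 3356 and a threshold of 0.01 944. RA96 versus RA48, called in 1949 genes, had 199 with the random block, 5122 with array weights, 3128 with the set as a block, 3513 in the first set alone and 954 at 0.01. The interaction was called in 534 genes after quantile normalization, 462 after scale normalization, 421 with single probes, 472 with array weights and 14 at 0.01. The cause was not tested, except that stricter thresholds call fewer genes by construction.

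With the replicate block 5817 rows and 3652 genes were called in RA48 against Control, and 2103 genes for the step difference. It ended 1 call of a named gene, that of Ppbp, and added that of Hoxd12. Counts of gene lists that it moved by over 1.5 times stand beside them. For RA48 and Control, arrays with 1 number lie in 1 set, and within sets their correlations were -0.155 to 0.00805. RA96 replicate 2 lies in the second set, whereas Control and RA48 replicates 2 lie in the first. Medians of 48 of 73 gene lists moved by more than the spread between RA48 arrays in some alternative, 28 of them with array weights. Changes of 0.5 were recovered in 19.4% of simulated rows, but far fewer rows were changed there than were called here. The share of small changes missed on these arrays was therefore not measured.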

Other observations

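Several further gene groups were measured, and their counts stand against 18.0% rising and 16.4% falling over all genes. Of 23 genes of claudins, tight and gap junctions 9 rose (3 under the random block) and 0 fell in RA48 against Control, with Cldn4, a barrier claudin of epithelia, higher by 2.19 ± 0.32 and Tjp1, a scaffold of tight junctions, by 0.60 ± 0.12. Of 25 cell cycle inhibitors and arrest genes 10 rose and 1 fell. Cdkn1a, an inhibitor of cyclin-dependent kinases, rose by 1.35 ± 0.16 and Btg2, an antiproliferative cofactor, by 1.10 ± 0.09. Cdk6, a kinase that drives entry into S phase and is not an inhibitor, rose by 1.17 ± 0.11. Of 37 p53 targets and apoptosis genes 10 rose and 4 fell (4 and 0 under the random block), and Perp, a p53 target and desmosome protein, rose most (2.29 ± 0.25). In the list of insulin and IGF signalling 7 of 23 rose (3 under the random block) and 5 fell. Irs4, a docking protein of insulin receptors, fell by 1.72 ± 0.21 and Eif4ebp1, a brake on translation initiation, by 0.91 ± 0.15.

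In the lists that follow 43.8%, 37.5%, 32%, 41.4% and 19% were called, in that order, against 34.4% of all genes. Of 32 G protein-coupled receptors and partners 7 rose and 7 fell (2 and 3 under the random block), with Ramp3, a receptor-modifying protein, at -1.49 ± 0.14 and Ednrb, an endothelin receptor, at 1.07 ± 0.14. Of 32 ion channels and pumps 5 rose and 7 fell (1 and 3 under the random block). Both measured beta subunits of the sodium pump named by the rule fell, Atp1b1 by 1.12 ± 0.11 and Atp1b2 by 0.87 ± 0.12, while the calcium pump Atp2b1 rose by 1.21 ± 0.08. Of 50 genes of fatty acid and lipid metabolism 9 rose and 7 fell (6 and 4 under the random block), with Fads1, a desaturase, at 1.30 ± 0.11 and Elovl6, an elongase, at -0.96 ± 0.11. Of 58 ubiquitin enzymes 8 rose and 16 fell (2 and 4 under the random block), with the conjugating enzymes Ube2h at 1.18 ± 0.10 and Ube2v2 at -0.82 ± 0.12. Of 42 genes of the endoplasmic reticulum and unfolded protein response 4 rose and 4 fell (2 rises without RA48 replicate 4 or 5, 9 falls with the replicate block, 0 of either under the random block), and Hyou1, a chaperone there, fell by 0.50 ± 0.10 (adjusted p = 0.097 with the random block).

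In 23 genes with several probes, 2 probes were called in opposite directions. In Map4, Pdcd11, Smarca5 and Fam107b among them the average over probes therefore hides opposite changes, from -0.45 to 1.23 for Map4, a microtubule-associated protein, and from -0.68 to 3.28 for Pdcd11, a protein of ribosome assembly. Which transcripts these probes measure was not analysed here.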
